A study of Mus musculus with 8 samples.

Results

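Kinesins are motor proteins that use ATP to walk along or take apart microtubules. The members described here are the 38 genes, of 24047 rows in the deposited count table, whose symbol is Kif followed by a digit. They were sorted by known role into 15 transport kinesins, which carry vesicles, organelles and RNA along microtubules, 11 mitotic kinesins, which build and pull the spindle or cut dividing cells apart, and 11 others that trim microtubules or serve cilia and signalling. The remaining row, Kif4-ps, is a processed pseudogene of Kif4. In neurons, kinesin-1 and kinesin-3 motors supply axons and synapses, and astrocytes use the same motor types to move organelles and RNA into their fine processes. Mitotic kinesins are transcribed in dividing cells and are at low levels once a cell leaves the cycle. Kif7 works at the tip of the primary cilium as a regulator of Hedgehog signalling.

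RNA came from tdTomato-positive cells sorted as astrocytes from the somatosensory cortex of mice aged 23 to 25 postnatal days. The 4 Ptch1cKO libraries came from mice carrying Glast-CreERT2, Ptch1fl/fl and the Ai14 reporter, and the 4 WT libraries from mice carrying Glast-CreERT2 and Ai14 with no floxed Ptch1 in their labels. Both groups received tamoxifen on postnatal days 12 to 14. Glast drives the Cre in astrocytes and in other cells of the glial lineage, so tdTomato marks cells in which Cre acted, together with their progeny, and the floxed Ptch1 is exposed to Cre in the same cells. Total counts were 4061274 to 7206462 per library, and no label ties a library to its own animal, so p-values measure only the spread between these libraries, which may be technical. Xist, the RNA that coats the inactive X chromosome in female cells, was counted 1148 times in WT replicate 2 and 612 times in WT replicate 3, against at most 4 times in the other 6 libraries. Ptch1, the targeted gene, averaged 223 ± 40.8 CPM (counts scaled to a common library size) in Ptch1cKO and 357 ± 122 CPM in WT (SD, n = 4 each), or -0.67 on the log2 scale (SE 0.22; Benjamini-Hochberg adjusted p = 0.349 in edgeR). Each column name carries a prefix whose meaning is not given (s1 and s5 in WT; s9, s13 and s15 in Ptch1cKO), and none is shared by both genotypes, so in every comparison below what it stands for and genotype cannot be told apart. The libraries also hold transcripts of other cell types. The summed level of 12 astrocyte markers was 17165 to 35367 CPM in Ptch1cKO and 21557 to 32763 CPM in WT, and that of 14 neuron markers was 12236 to 15600.2 CPM in Ptch1cKO and 13283 to 15078 CPM in WT.

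The sequences upstream of 4 members are shown to set mitotic promoters beside a transport promoter. Each is the 250 bases before the RefSeq start on GRCm38.p6, read 5′ to 3′ on the gene's strand. Capitals mark the cell cycle homology region (TTTGAA, or TTCAAA on the other strand), an element known from genes switched on in late cell cycle, and the CCAAT box (CCAAT, or ATTGG on the other strand), known as the binding site of the factor NF-Y. Kif11 (chr19:37376132-37376381, plus strand) holds both, with their first letters 19 and 45 bases before the start. Kif18b (chr11:102925125-102925374, minus strand) holds a CCAAT box at 53 and another at 30 bases. Kif23 (chr9:61946800-61947049, minus strand) holds a CCAAT box at 7 bases. Kif5c (chr2:49619036-49619285, plus strand), a transport kinesin, holds neither.
Kif11: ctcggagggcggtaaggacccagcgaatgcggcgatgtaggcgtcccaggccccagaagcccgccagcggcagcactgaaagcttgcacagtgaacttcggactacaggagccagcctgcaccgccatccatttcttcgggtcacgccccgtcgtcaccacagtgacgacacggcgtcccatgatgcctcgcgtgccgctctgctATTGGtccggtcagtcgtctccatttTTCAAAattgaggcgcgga
Kif18b: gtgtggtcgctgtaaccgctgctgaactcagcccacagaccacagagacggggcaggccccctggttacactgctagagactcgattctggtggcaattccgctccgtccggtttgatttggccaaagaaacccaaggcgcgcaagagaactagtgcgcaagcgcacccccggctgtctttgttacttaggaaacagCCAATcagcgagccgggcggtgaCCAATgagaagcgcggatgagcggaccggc
Kif23: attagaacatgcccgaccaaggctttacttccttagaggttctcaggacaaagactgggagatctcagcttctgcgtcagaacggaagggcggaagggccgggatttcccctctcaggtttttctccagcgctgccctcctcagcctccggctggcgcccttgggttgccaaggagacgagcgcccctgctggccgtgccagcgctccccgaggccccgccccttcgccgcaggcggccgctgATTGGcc
Kif5c: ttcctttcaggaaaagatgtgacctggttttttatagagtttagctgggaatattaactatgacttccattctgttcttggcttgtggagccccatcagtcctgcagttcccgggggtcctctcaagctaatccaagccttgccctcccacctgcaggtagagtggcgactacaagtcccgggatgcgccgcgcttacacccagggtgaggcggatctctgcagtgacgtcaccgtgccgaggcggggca
In all, 31 members had an entry in the promoter table, and Kif5a had none. TTTGAA was found on either strand in the 250-base windows of 5 of 10 mitotic kinesins (Kif2c, Kif11, Kif14, Kif15 and Kif22). It was found for 1 of 11 transport kinesins (Kif1a) and 2 of 10 others (Kif26b and Kif27), against 16.0% of all 32851 such windows. CCAAT was found in the windows of 6 of 10 mitotic, 3 of 11 transport and 5 of 10 other kinesins, against 33.8% of all windows. Both were found for 3 mitotic kinesins, 0 transport kinesins and 2 others, against 5.55% of windows. A member with several windows counted if any of them matched, while the shares over all windows take each window singly. By the GENCODE annotation, the matching windows of Kif1a, Kif2c, Kif4, Kif14 and Kif27 lie wholly inside the gene, not upstream of it. The Kif1a window at the annotated gene start holds neither motif. The motifs share no bases in the sequences shown, and a match describes letters only.

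Kinesin transcripts were dominated by a few transport motors. By count summed over the 8 libraries, Kif5a was the most abundant row of the whole table. It ranked first in 5 libraries and no lower than rank 3 in the others. In the authors' TPM, which divide by transcript length and are the scale used here to compare genes, it ranked between 5 and 13. The 38 kinesin rows together took 3.87%, 4.62%, 4.82% and 4.25% of all counts in Ptch1cKO libraries 1 to 4, and 3.96%, 3.76%, 3.43% and 4.12% in WT libraries 1 to 4. Kif5a, Kif5b, Kif5c, Kif1a and Kif1b made up 97.0 to 97.6% of the kinesin counts in Ptch1cKO and 96.7 to 97.3% in WT. The libraries were enriched with exome capture probes, so a level compared between genes depends on capture as well as on abundance.

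**Figure D1:**
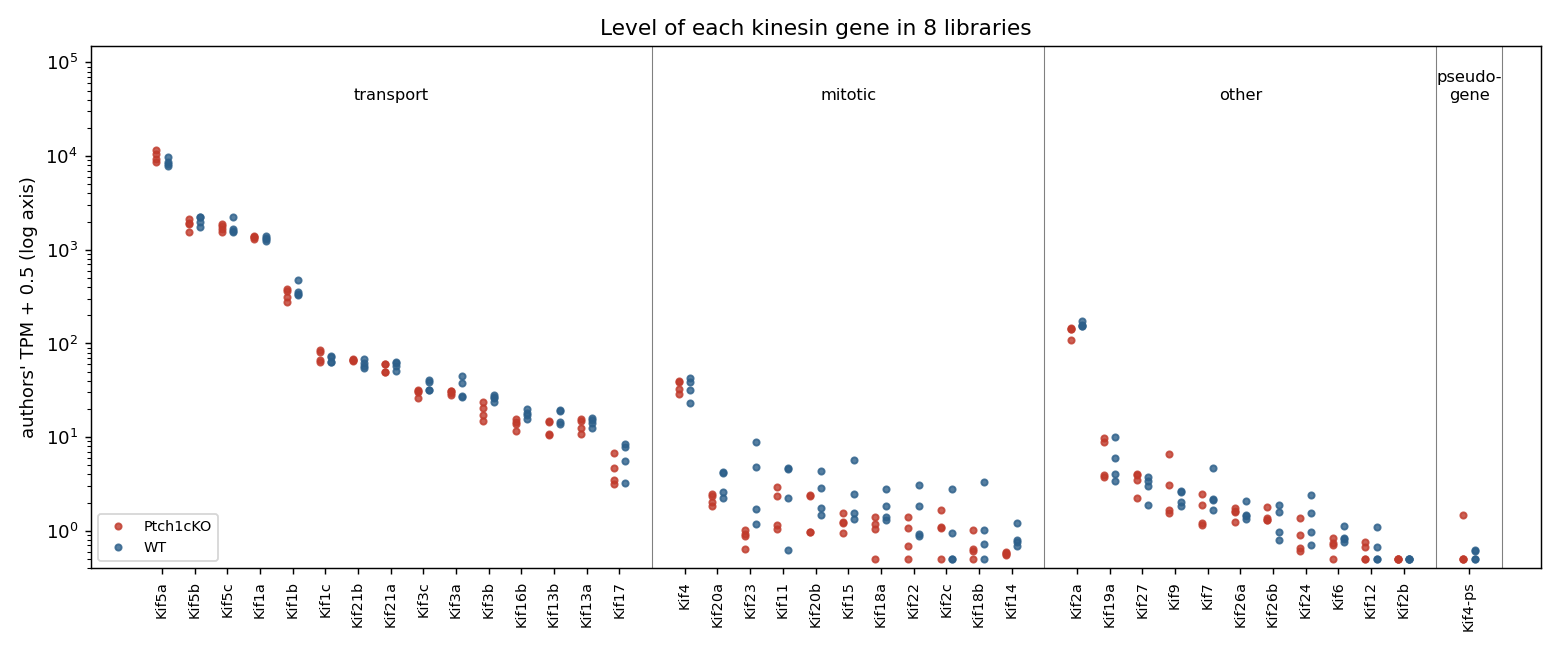
Level of each of the 38 kinesin rows in 8 libraries, as the authors' TPM plus 0.5 on a log axis, with genes ordered by mean TPM within their class. Each point is a library, with Ptch1cKO left of WT. The 5 leading transport motors lie above 200 TPM, and Kif4 stands 15.2 times above the next mitotic kinesin.

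Kif5a encodes the neuron-enriched kinesin-1 heavy chain, which moves neurofilaments and mitochondria in axons. It lies on chromosome 10 of mm10 (127225696 to 127263348, minus strand), where no other annotated gene shares its exons. Its TPM was 8705, 11607, 10459 and 9349.7 in Ptch1cKO libraries 1 to 4, and 8614, 8142, 7751 and 9764 in WT libraries 1 to 4. The ranges overlapped. Its mean over the 8 libraries was 4.74 times that of Kif5b, the next member. The length implied by count and TPM was 1.47 times the GENCODE exon length of Kif5a, relative to the median gene, against 1.11 times for Kif5b, 1.40 times for Kif5c and 1.30 times for Kif1a. Among the neuron markers, the kinase subunit Camk2a averaged 4403 ± 358 TPM in Ptch1cKO and 4826 ± 225 TPM in WT, and the synaptic SNARE protein Snap25 averaged 3848 ± 392 TPM in Ptch1cKO and 4630.1 ± 759.9 TPM in WT (SD, n = 4). The synaptic vesicle protein Syn1 averaged 335 ± 41.4 TPM in Ptch1cKO and 375 ± 55.7 TPM in WT. Kif5a stood above all 14 neuron markers in mean TPM. It also stood near the astrocyte enzyme Aldoc, at 8814 ± 1636 TPM in Ptch1cKO and 9018 ± 1222 TPM in WT. The part of neuronal RNA in the Kif5a level was not tested.

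In the comparison of genotypes, Kif5a was the transport kinesin with the smallest p. Its CPM was 23644, 31329.5, 30945 and 25316 in Ptch1cKO libraries 1 to 4, and 22637, 20709.5, 19908 and 24098 in WT libraries 1 to 4. All Ptch1cKO libraries were above 3 of the 4 WT libraries, and Ptch1cKO replicate 1 was below WT replicate 4. The means were 27809 ± 3907 CPM in Ptch1cKO and 21838 ± 1893 CPM in WT (SD, n = 4), a fold change of 1.27 (95% interval 1.05 to 1.54) or 0.35 on the log2 scale (SE 0.13). The unadjusted p was 0.0159, and Kif5a did not pass over all genes (Benjamini-Hochberg adjusted p = 0.420 in edgeR). On the log2 TPM scale the difference was 0.22 (limma, unadjusted p = 0.103, Benjamini-Hochberg adjusted p = 0.551). Without the replicates in turn, its log2 fold change lay between 0.29 and 0.42, with adjusted p-values of 0.355 or above. Within the family, where library scaling cancels, Kif5a took 61.0%, 64.3%, 64.3% and 59.5% of kinesin counts in Ptch1cKO libraries 1 to 4, and 59.0%, 56.5%, 57.7% and 57.4% in WT libraries 1 to 4. These shares did not overlap between the groups, by a gap smaller than the range within either group, and a share among members chosen for this family carries no test. All 15 transport kinesins summed to 44206 ± 4773 CPM in Ptch1cKO and 37535 ± 3175 CPM in WT (SD, n = 4). The other 14 transport kinesins summed to 16398 ± 1095 CPM in Ptch1cKO and 15696 ± 1391 CPM in WT (SD, n = 4), with overlapping ranges. In a sorted bulk sample, fewer cells of a type and less RNA per cell cannot be told apart. The summed neuron markers given above overlapped between groups and had means of 14081 ± 1387 CPM in Ptch1cKO and 14531 ± 840.2 CPM in WT (SD, n = 4).

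**Figure D2:**
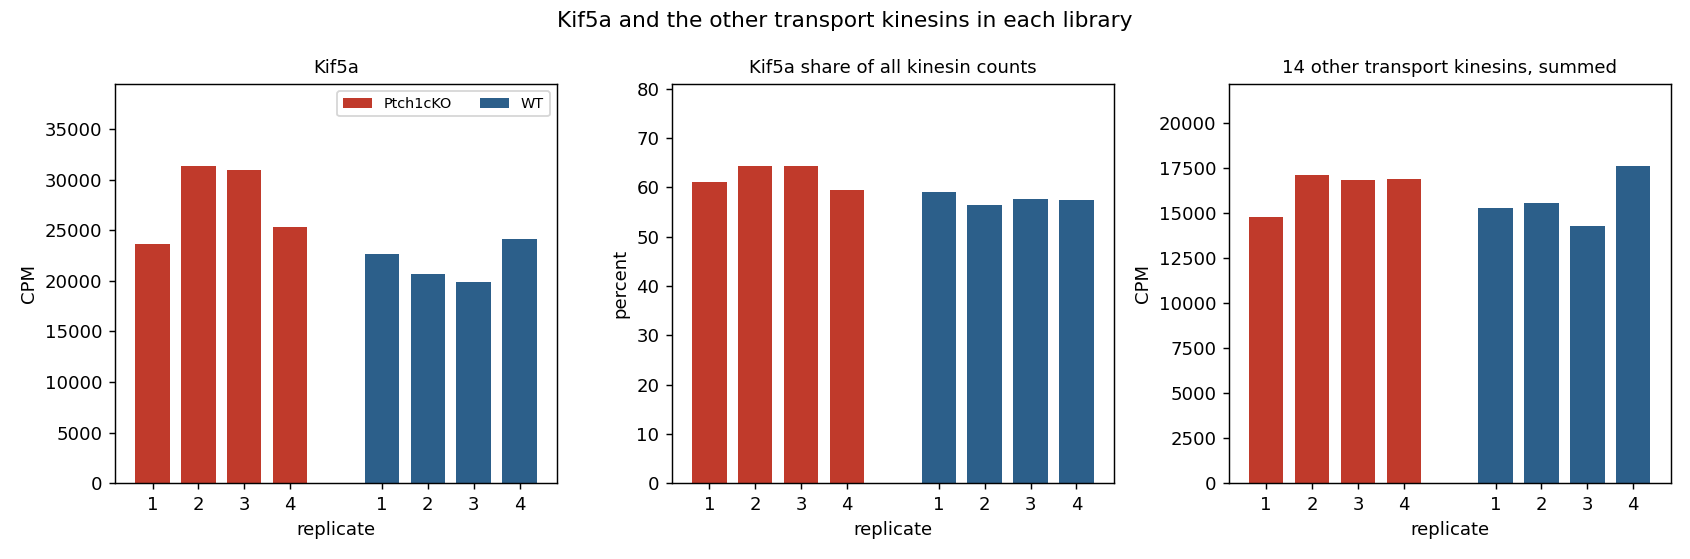
Kif5a in CPM (left), Kif5a as a percent of all kinesin counts (middle) and the summed CPM of the other 14 transport kinesins (right), 1 bar per library, with Ptch1cKO replicates left of WT replicates. The Kif5a share is 59.5 to 64.3% in Ptch1cKO and 56.5 to 59.0% in WT, while both CPM panels overlap between groups.

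The other kinesin-1 heavy chains differed little between genotypes. Kif5b, which is expressed in most cell types, had 1561, 2110.0, 1909.9 and 1901 TPM in Ptch1cKO libraries and 1997, 2250.0, 1744 and 2223 TPM in WT libraries. Kif5c, which is enriched in neurons, had 1529.9, 1789, 1666 and 1900.2 TPM in Ptch1cKO libraries and 1537, 1655, 1574 and 2249 TPM in WT libraries. Their ranges overlapped each other as well as between groups, so their order in level is not fixed by these data. The fold change was 0.990 for Kif5b (95% interval 0.820 to 1.20) and 1.07 for Kif5c (0.881 to 1.29). Kif5c turned to slightly lower in Ptch1cKO on the TPM scale and among the 6 libraries with under 10 Xist counts. On the TPM scale its log2 difference was -0.014, against a median of -0.10 over all genes.

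Kinesin-3 motors carry synaptic vesicle precursors, dense core vesicles and endosomes. Kif1a, the main carrier of synaptic vesicle precursors, had 1369.7, 1365, 1308 and 1391 TPM in Ptch1cKO libraries and 1328, 1304, 1235 and 1408 TPM in WT libraries, the steadiest member, with a 1.22-fold span of CPM over the 8 libraries. In CPM it was 4391, 4349, 4567 and 4446 in Ptch1cKO and 4119, 3916, 3743 and 4102 in WT, so all Ptch1cKO libraries were above all WT libraries on this scale but not in TPM. The fold change was 1.12 (95% interval 0.959 to 1.30; Benjamini-Hochberg adjusted p = 0.674 in edgeR). Kif1b, which carries mitochondria and vesicles, had 317, 386, 278 and 364 TPM in Ptch1cKO libraries and 340.2, 327, 354 and 477 TPM in WT libraries, and a fold change of 0.972 (0.800 to 1.18). Kif1c averaged 74.0 ± 10.6 TPM in Ptch1cKO and 68.0 ± 5.30 TPM in WT (SD, n = 4), and its fold change was 1.18 (0.978 to 1.42). The endosome motors Kif13a, Kif13b and Kif16b lay between 10.0 and 19.2 TPM in every library and had log2 fold changes of -0.00083, -0.30 and -0.24. Kif13a took either sign across the alternatives. Kif16b had lower TPM in every Ptch1cKO library than in any WT library, and its groups overlapped in CPM. On the TPM scale the median log2 difference over all genes was -0.10.

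The kinesin-4 motors Kif21a and Kif21b restrain microtubule growth and act in axons and dendrites. Kif21b had 237, 238, 256 and 227 CPM in Ptch1cKO libraries and 209.8, 226, 190.2 and 173 CPM in WT libraries. The lowest Ptch1cKO library lay just above the highest WT library. Its fold change was 1.20 (95% interval 0.999 to 1.44; edgeR, unadjusted p = 0.0516, Benjamini-Hochberg adjusted p = 0.541). In TPM, Kif21b had 66.8, 67.6, 66.3 and 64.2 in Ptch1cKO and 61.2, 68.0, 56.8 and 53.8 in WT, and the groups overlapped. Kif21a had a fold change of 1.02 (0.844 to 1.24).

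Kinesin-2 motors drive the outward transport that builds cilia, the organelle through which Smo and Gli proteins act. Kif3a and Kif3b form one motor with the adaptor Kifap3, and Kif3c can replace Kif3b. Kif3b had 20.0, 23.1, 16.7 and 14.3 TPM in Ptch1cKO libraries and 23.3, 27.7, 25.6 and 26.4 TPM in WT libraries. In TPM, where the median log2 difference over all genes was -0.10, every Ptch1cKO library was below every WT library. In CPM the groups overlapped. Its log2 fold change of -0.36 (SE 0.17) did not pass (edgeR, unadjusted p = 0.0579, Benjamini-Hochberg adjusted p = 0.555). The unadjusted p was 0.0284 with limma on log2 TPM and 0.0441 with DESeq2, and the Benjamini-Hochberg adjusted p was 0.432 with limma and 0.763 with DESeq2. Kif3a averaged 29.5 ± 1.45 TPM in Ptch1cKO and 33.7 ± 8.65 TPM in WT, Kif3c averaged 29.3 ± 2.71 TPM in Ptch1cKO and 35.4 ± 4.74 TPM in WT, and the log2 fold changes were -0.067 for Kif3a and -0.16 for Kif3c. Kifap3 had a log2 fold change of -0.074 (SE 0.19). Exons of Kif3c overlap the antisense gene 1110002L01Rik over 2617 bases, and the strand setting of the counting is unknown. Kif17, a motor of dendrites and cilia, was the least abundant transport kinesin, at 4.02 ± 1.61 TPM in Ptch1cKO and 5.81 ± 2.38 TPM in WT (SD, n = 4).

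Across the family, 0 of the 27 kinesins that passed the count filter were called over all genes (adjusted p under 0.05 by Benjamini-Hochberg, edgeR), where 0.100% of the 10954 genes tested were called. An unadjusted p under 0.05 was found for 2 of the 27, Kif5a as higher and the mitotic kinesin Kif15 as lower, against 9.34% of all genes, of which 4.80% higher and 4.54% lower. In CPM the groups did not overlap in 2 of the 27, Kif1a and Kif21b, both higher in Ptch1cKO, against 5.02% of all genes in either direction with 2.52% higher and 2.50% lower. No share over all genes is given for groups that do not overlap in TPM. All 15 transport kinesins passed the filter. Of these, 6 had positive and 9 negative fold changes, with a median log2 fold change of -0.014, close to the -0.0019 of all genes, of which 49.6% were positive and 50.4% negative. Of the 15, 10 had a 95% interval that lay inside a 1.5-fold change either way, against 28.3% of all genes. The median log2 CPM of those tested was 7.11 for the transport, 1.91 for the mitotic and 1.69 for the other kinesins, and 4.07 for all genes. Of the 5 mitotic kinesins that passed, 1 had a positive and 4 a negative fold change, with a median of -0.77, and of the 7 others that passed, 5 were positive and 2 negative, with a median of 0.28. Of the mitotic kinesins tested, 0 had an interval inside 1.5-fold.

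**Figure D3:**
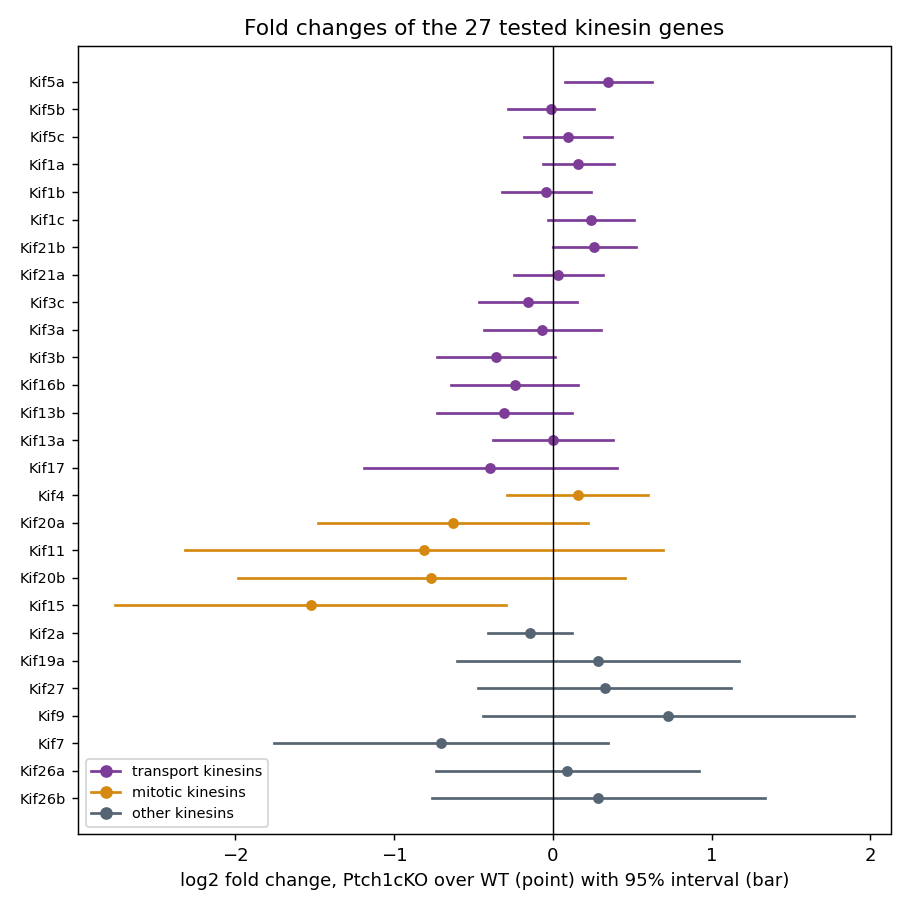
Log2 fold change of Ptch1cKO over WT for the 27 kinesins that passed the count filter, from edgeR, with 95% intervals as bars and colours for the 3 classes. The transport kinesins lie between -0.39 and 0.35, 4 of the 5 mitotic kinesins lie below -0.6 with wide intervals, and only the intervals of Kif5a and Kif15 exclude 0.

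Mitotic kinesins were at low levels, with Kif4 as the exception. Kif4, which works in chromosome condensation and the central spindle, had 32.1, 28.4, 38.8 and 39.0 TPM in Ptch1cKO libraries 1 to 4, and 42.6, 38.0, 31.1 and 22.4 TPM in WT libraries 1 to 4. The groups overlapped, and the fold change was 1.11 (95% interval 0.819 to 1.51). Kif4 lies on the X chromosome (100625737 to 100727214, plus strand), and its exons overlap 832 bases of Pdzd11 on the opposite strand. Pdzd11 averaged 173 ± 28.3 TPM in Ptch1cKO and 198 ± 32.9 TPM in WT (SD, n = 4), so Kif4 may hold reads of Pdzd11, which was not tested. No other mitotic kinesin averaged over 2.24 TPM across the 8 libraries.

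The 11 mitotic kinesins summed to 65.8, 64.1, 93.0 and 81.8 CPM in Ptch1cKO libraries 1 to 4, and 119, 97.0, 68.8 and 52.7 CPM in WT libraries 1 to 4. The groups overlapped, in TPM as well, and the ratio of the means was 0.904 in CPM and 0.811 in TPM. The log2 ratio of this sum was -0.15, and 0.065 without WT replicate 1. Without Kif4, the other 10 summed to 7.39, 12.9, 16.2 and 11.2 CPM in Ptch1cKO libraries 1 to 4, and 43.9, 32.2, 15.4 and 15.6 CPM in WT libraries 1 to 4. WT replicates 1 and 2 stood apart with the highest sums, whereas WT replicates 3 and 4 lay within the Ptch1cKO range. In the authors' TPM the same sum was 4.74, 8.16, 8.69 and 6.86 in Ptch1cKO and 28.5, 20.8, 9.83 and 12.2 in WT, without overlap. On the TPM scale the median log2 difference over all genes was -0.10. A list of 21 other cell division genes, of which 8 passed the count filter, was highest in the same WT libraries, at 32.0, 32.1, 67.4 and 61.0 CPM in Ptch1cKO libraries 1 to 4, and 223, 86.3, 19.4 and 20.2 CPM in WT libraries 1 to 4. In this list WT replicates 3 and 4 were lower than every Ptch1cKO library. The proliferation antigen Mki67, with a log2 fold change of -1.53 (SE 1.01), had 7, 6, 23 and 28 counts in Ptch1cKO and 130, 69, 8 and 3 counts in WT, and the topoisomerase Top2a had 58, 36, 107 and 159 counts in Ptch1cKO and 731, 210, 23 and 3 counts in WT. Top2a alone held 8.24, 6.26, 26.3 and 26.3 CPM of the list sum in Ptch1cKO libraries, and 123, 33.0, 3.21 and 0.618 CPM in WT libraries. Log2 fold changes were -0.87 (SE 0.48) for cyclin Ccna2, -1.02 (SE 0.60) for the kinetochore protein Cenpf and -1.22 (SE 0.81) for the ubiquitin ligase partner Ube2c. Of the 8 division genes tested, 2 had positive and 6 negative fold changes. Those nearest 0 or higher in Ptch1cKO were Incenp at -0.14 (SE 0.36), Tpx2 at 0.0023 (SE 0.75) and Racgap1 at 0.42 (SE 0.62). Among the 8, 0 passed over all genes and 0 had an unadjusted p under 0.05 by edgeR, against 0.100% and 9.34% of all genes. WT replicates 1 and 2 share the column prefix s1 and WT replicates 3 and 4 the prefix s5, so the gap between these pairs lies within WT.

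**Figure D4:**
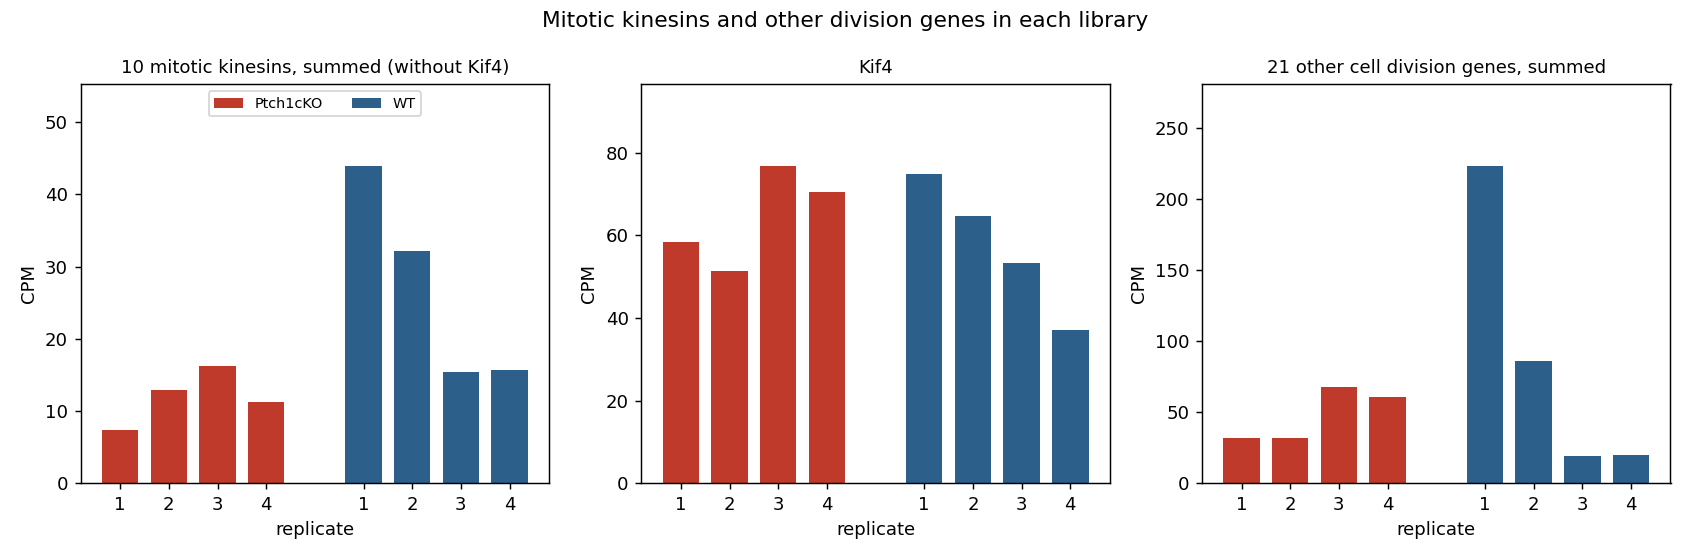
Summed CPM of 10 mitotic kinesins without Kif4 (left), CPM of Kif4 (middle) and summed CPM of 21 other cell division genes (right), 1 bar per library, with Ptch1cKO replicates left of WT replicates. WT replicates 1 and 2 have the highest bars in the left and right panels, and the highest Kif4 bar is that of Ptch1cKO replicate 3.

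Kif23 differed most between the groups by fold. It is the motor of centralspindlin, the complex that organises the midzone for cell cleavage. Its counts were 4, 1, 3 and 3 in Ptch1cKO libraries 1 to 4, and 63, 34, 6 and 7 in WT libraries 1 to 4. Every Ptch1cKO library was below every WT library, and most WT counts came from replicates 1 and 2. Pooled over libraries the rate in Ptch1cKO was 0.106 of that in WT (95% exact interval 0.0515 to 0.197, counting error only). Kif23 had too few counts in most libraries to enter the test. The exact permutation test, two-sided and over all 70 assignments, gave the smallest p the design allows, 0.0286, and an adjusted p of 0.129 over the 9 members tested this way (Benjamini-Hochberg). In edgeR without the count filter, Kif23 was called lower in Ptch1cKO, with a log2 fold change of -3.18 (SE 0.60; Benjamini-Hochberg adjusted p = 8.02e-05 over 20578 genes, of which 199 were called). DESeq2 called it as well, at -3.24 (Benjamini-Hochberg adjusted p = 0.0359). The call was lost without WT replicate 1, at -2.35 (edgeR without the filter, adjusted p = 0.111), and without both WT libraries of prefix s1, at -1.16 (adjusted p = 0.697). It held in the 6 libraries with under 10 Xist counts, at -3.59 (edgeR without the filter, adjusted p = 5.4e-05). Of WT, these keep only replicate 1, with 63 counts, and replicate 4, with 7. They retain the library whose removal lost the call, so they cannot show whether the call depends on it. Racgap1, the partner of Kif23 in centralspindlin, had 9, 18, 7 and 16 counts in Ptch1cKO and 22, 12, 5 and 1 counts in WT. The log2 fold change of Racgap1 was 0.42 (SE 0.62).

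Kif15, a spindle motor that works beside Kif11, had 6, 11, 6 and 8 counts in Ptch1cKO libraries and 55, 22, 13 and 7 counts in WT libraries. WT replicate 1 was highest and the groups overlapped, and the log2 difference was -1.53 (SE 0.58; edgeR, unadjusted p = 0.0185, Benjamini-Hochberg adjusted p = 0.429). It was -0.71 without WT replicate 1 (edgeR, unadjusted p = 0.206). Kif11, which pushes spindle poles apart, had 7, 7, 20 and 21 counts in Ptch1cKO and 45, 45, 22 and 1 counts in WT, so the WT group held both its highest and its lowest library. Kif20b, a motor of late cleavage, had 7, 23, 18 and 6 counts in Ptch1cKO and 29, 50, 14 and 12 counts in WT. Their log2 fold changes were -0.81 (SE 0.70) for Kif11 and -0.77 (SE 0.57) for Kif20b, and neither passed. Kif20a, which recruits regulators of cell cleavage to the midzone, departed from this pattern, with 14, 13, 13 and 17 counts in Ptch1cKO and 15, 19, 38 and 24 counts in WT, highest in WT replicate 3. Exons of Kif20a overlap 1271 bases of opposite-strand Cdc23, which averaged 38.7 ± 7.83 TPM in Ptch1cKO and 47.2 ± 8.45 TPM in WT (SD, n = 4), and the part of Cdc23 reads in the Kif20a count was not tested.

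Kif14, a further cleavage motor, had 2, 1, 1 and 2 counts in Ptch1cKO and 14, 6, 6 and 3 counts in WT. Its groups did not overlap in CPM, with a pooled ratio of 0.22 (95% exact interval 0.0745 to 0.538, counting error only) and the smallest possible exact permutation p of 0.0286 (adjusted p = 0.129 over 9 members). Kif18b, which acts on the ends of astral microtubules, had 1, 1, 3 and 0 counts in Ptch1cKO and 21, 4, 2 and 0 counts in WT, most of them in WT replicate 1. The chromosome alignment motor Kif18a, the chromosome-binding Kif22 and the microtubule depolymerase Kif2c had between 0 and 16 counts in any library. Their exact permutation p-values were 0.0857, 0.257 and 1. The pseudogene Kif4-ps had 0, 8, 0 and 0 counts in Ptch1cKO and 0, 1, 1 and 0 counts in WT, and reads cannot be assigned with certainty between it and Kif4.

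Among the other kinesins, Kif2a was the only member above 10 TPM. It takes apart microtubule ends and prunes axon branches, and had 146, 141, 107 and 142 TPM in Ptch1cKO libraries and 175, 154, 157 and 155 TPM in WT libraries. In TPM all Ptch1cKO libraries were below all WT libraries. In CPM they overlapped, at 237, 227, 189 and 229.9 in Ptch1cKO and 274, 233, 241 and 228 in WT. The fold change was 0.905 (95% interval 0.754 to 1.09; Benjamini-Hochberg adjusted p = 0.783 in edgeR). Over all genes the median log2 difference was -0.10 on the TPM scale and -0.0019 in the counts.

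Kif7, the ciliary Hedgehog regulator, was barely counted. It had 17, 7, 5 and 21 counts in Ptch1cKO libraries and 17, 17, 14 and 32 counts in WT libraries, or 1.18 ± 0.638 TPM in Ptch1cKO and 2.17 ± 1.34 TPM in WT (SD, n = 4). The groups overlapped, WT replicate 4 was highest, and the log2 fold change was -0.70 with a 95% interval of -1.76 to 0.35 (Benjamini-Hochberg adjusted p = 0.715 in edgeR). Exons of Kif7 overlap antisense 9330171B17Rik over 877 bases. Its close relative Kif27, known from motile cilia, had 21, 35, 26 and 31 counts in Ptch1cKO and 25, 14, 34 and 25 counts in WT. Kif19a, which limits the length of motile cilia, had 77, 26, 19 and 73 counts in Ptch1cKO and 27, 74, 49 and 17 counts in WT, varying as much within each group as between them. Kif9, a motor of motile cilia and flagella, had 10, 9, 36 and 21 counts in Ptch1cKO and 16, 17, 12 and 9 counts in WT. Ptch1cKO replicate 3 held the highest Kif9 level, and the log2 fold change was -0.052 without it, against 0.73 with all libraries. Kif26a and Kif26b averaged under 1.1 TPM in both groups. Kif24, Kif6 and Kif12 had at most 25 counts in a library, and Kif2b had 0 counts in all 8, which by counting error allows up to 3 counts in each.

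Members differed in how steady they were. Over the 8 libraries, the highest CPM of a transport kinesin was 1.22 to 2.79 times its lowest, with a median of 1.43. For the 7 mitotic kinesins with a count in every library this span was 2.07 to 61.0, with a median of 10.9, and for the 8 such others it was 1.45 to 16.0, with a median of 4.12. Low counts widen this span. Kif4, whose level is close to that of the transport kinesins Kif3a and Kif3c, had the smallest span of the mitotic class. Its span was 2.07, against 1.61 for Kif3a and 1.37 for Kif3c. The part of low counts in the spans was not tested.

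Partners of the motors were examined from lists of light chains, adaptors, dynein and tubulin genes. Of 19 tested kinesin light chains and cargo adaptors, 0 passed over all genes by edgeR, the signs split into 9 positive and 10 negative, and an unadjusted p under 0.05 was found for 3, where all 3 were higher, against 9.34% of all genes and 4.80% in the higher direction. These were Trak2, which links kinesin-1 to mitochondria, at 0.39 (SE 0.14) on the log2 scale, Fez1, a kinesin-1 adaptor of axonal transport, at 0.40 (SE 0.16), and the lysosome GTPase Arl8a, at 0.39 (SE 0.16). Clstn1, which links cargo to kinesin light chains, was next, at 0.31 (SE 0.15). Trak2 had 593, 778, 886 and 811 CPM in Ptch1cKO libraries and 558, 636, 517 and 638 CPM in WT libraries, and only Ptch1cKO replicate 1 lay within the WT range. The light chains Klc1 and Klc2 had log2 fold changes of -0.062 (SE 0.15) and -0.12 (SE 0.20). The median of the list was -0.010.

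Dynein carries cargo in the opposite direction to most kinesins. Of 24 tested dynein and dynactin genes, 0 passed, where 0.100% of all genes did. Fold changes were positive for 6 and negative for 18, with a median log2 fold change of -0.11, against -0.0019 for all genes. The members with the smallest p were the dynactin subunit Actr1b at 0.36 (SE 0.14), the dynein light chain Dynll2 at -0.29 (SE 0.13), the dynactin subunit Dctn2 at 0.41 (SE 0.20) and the dynein regulator Ndel1 at -0.51 (SE 0.26). Dctn2 lies 3019 bases from Kif5a on the opposite strand, without overlap. Of 25 tubulin and microtubule-binding genes, 0 passed, 15 were positive and 10 negative. The alpha-tubulin Tuba1c had 41.6, 128, 54.1 and 40.2 CPM in Ptch1cKO libraries and 164, 169, 128 and 201 CPM in WT libraries. Ptch1cKO replicate 2 lay at the low end of the WT values, the other Ptch1cKO libraries far below, and the log2 fold change was -1.32 (SE 0.33; edgeR, unadjusted p = 0.00148, Benjamini-Hochberg adjusted p = 0.235). Tubb6 had 0.96 (SE 0.42), Tubb2a 0.23 (SE 0.12) and the microtubule destabiliser Stmn2 0.25 (SE 0.13) on the log2 scale.

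The levels of markers of other cell types stand beside these results. Over all genes tested by edgeR, 0.100% passed and 9.34% had an unadjusted p under 0.05. The 14 neuron markers were all tested, 4 with positive and 10 with negative fold changes, and 0 passed. Snhg11 at -1.22 (SE 0.34) and Rbfox3 at 0.36 (SE 0.15) had an unadjusted p under 0.05 by edgeR. All 12 astrocyte markers were tested, 10 with positive and 2 with negative fold changes, and 0 passed. Gjb6 at 0.80 (SE 0.29) and Atp1b2 at 0.49 (SE 0.23) had an unadjusted p under 0.05 by edgeR. The glutamate transporter gene Slc1a2 had -0.23 (SE 0.24), and the summed list averaged 26189 ± 7444 CPM in Ptch1cKO and 27644 ± 5236 CPM in WT (SD, n = 4). Oligodendrocyte markers summed to 17481 to 23134 CPM in Ptch1cKO (mean 20169) and 13773 to 26652 CPM in WT (mean 19799). Of 9 tested, 7 had positive and 2 negative fold changes, and 0 passed over all genes. An unadjusted p under 0.05 was found for 5 by edgeR, all higher in Ptch1cKO, against 4.80% of all genes in that direction. All 10 microglia markers had positive fold changes and 0 passed, with sums of 464 to 1265 CPM in Ptch1cKO and 419 to 832 CPM in WT. Oligodendrocyte precursor markers summed to 155 to 244 CPM in Ptch1cKO and 93.5 to 244 CPM in WT. Endothelial and mural markers summed to 14.3 to 28.4 CPM in Ptch1cKO and 20.0 to 35.2 CPM in WT. Of these last 2 lists, C1ql1 at 0.72 (SE 0.28) and the pericyte gene Rgs5 at -1.46 (SE 0.44) had an unadjusted p under 0.05 by edgeR, and neither passed. The part of these cell types in the kinesin values was not tested.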

How the data were processed

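The authors' deposited table of raw counts holds whole reads per gene symbol in 24047 rows for 8 libraries, and their deposited TPM table holds 23585 rows scaled by transcript length. Per the labels' protocols, cDNA came from a low-input system and was enriched with exome capture probes. The submitters' processing notes name bcl2fastq 2.18, STAR 2.5 and the mm10 build. How reads were counted, with which annotation and strand setting, is not given in the sources used. Replicates are numbered as in the sample titles.

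Counts were tested in R 4.3.3 with edgeR 4.0.16 (filterByExpr with a minimum count of 10, TMM scaling, robust quasi-likelihood F test, group as the only term), fitted on 10954 genes with Benjamini-Hochberg adjustment over all of them. The SE is the log2 fold change divided by the square root of F, and intervals are at 95%. CPM use the TMM-scaled library sizes. Members below the filter with at least 10 counts were compared with an exact permutation test. Intervals of pooled ratios cover counting error only, since counts were pooled over libraries and the spread between them left out. Reads carry no molecular identifiers, so duplicate reads could not be told from independent ones. Alternatives used DESeq2 1.42.0, limma 3.58.1 on log2(TPM + 0.5), no filter, the replicate number as a block and left-out libraries. Counts of libraries of 1 group were compared by chi-square, and none agreed within sampling noise (smallest chi-square per degree of freedom 11.4). The test was also run on simulated counts, with results not reported here.

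Gene positions are those of GENCODE M21 (GRCm38, the assembly of mm10), where all 38 members matched, and promoter sequences from RefSeq on GRCm38.p6. The members and lists were chosen with earlier results of these data known. Values in every library are given for the 5 members of each class highest in TPM, for members with an unadjusted p under 0.05 or groups that do not overlap, and for Kif7; other lists give up to 4 genes with the smallest p and some marker lists their most abundant genes, of which not all are reported here. Klc1, Klc2, Kifap3, Racgap1, Incenp, Tpx2, Top2a, Pdzd11 and Cdc23 fall outside that rule and were picked with their values known.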

Additional observations from a re-analysis of the deposited data

Results flagged for a closer look

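Among 72 sets of 4 libraries, 1 per member and group, 2 held a library far from the other 3, where chance gives about 1 in 20 sets. For Kif5c in WT, replicate 4 at 5418 CPM stood above 3943 to 4108 CPM in the others (gap 0.888 of the range). For Kif4-ps in Ptch1cKO, replicate 2 held 8 counts and the others 0 (gap 1 of the range).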

How the results depend on the processing

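No kinesin that passed the count filter was called under any alternative. Over all genes 11 were called, against 59 with DESeq2, 199 without the count filter, 2 with limma on log2 TPM, 3 in the 6 libraries with under 10 Xist counts and 1 to 19 without single replicates. The count of kinesins called was 1 in DESeq2 and 1 without the filter, both times Kif23, and 0 to 0 without single replicates. With the replicate number as a block (replicate block), 5 genes and 0 kinesins were called. Same-numbered libraries did not deviate together (correlations of -0.17 to 0.020), and no number gave its own pair the highest correlation, so the numbers were not taken as pairs. Directions turned for 9 kinesins, among them Kif9, whose log2 fold change with all libraries was 0.73. On the TPM scale Kif5c had -0.014, Kif21a -0.084 and Kif26a -0.0059, each above the median of -0.10 over all genes on that scale. In the libraries with under 10 Xist counts Kif5c had -0.0092, Kif21a -0.011 and Kif13a 0.067, and Kif13a had 0.0080 without the filter. Without single replicates the log2 fold change spanned -0.084 to 0.071 for Kif5b, -0.10 to 0.076 for Kif1b, -0.16 to 0.069 for Kif3a, -0.066 to 0.065 for Kif13a, -0.023 to 0.091 for Kif21a, -0.0046 to 0.31 for Kif4, -0.052 to 1.02 for Kif9 and -0.017 to 0.32 for Kif26a. The causes were not tested. Leaving out a library for Kif23 was chosen after seeing the data. Low counts limit 10 members below the filter and most mitotic kinesins.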

Other observations

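Kinesins listed under other symbols lay outside the family rule. The minus-end motor Kifc2, known from neurons, averaged 77.1 ± 9.15 TPM in Ptch1cKO and 80.6 ± 12.9 TPM in WT (SD, n = 4), and its log2 difference was 0.055 (SE 0.16). Kifc3 averaged 12.6 ± 2.20 TPM in Ptch1cKO and 13.97 ± 3.93 TPM in WT, and its log2 difference was -0.037 (SE 0.24). The kinetochore kinesin Cenpe had 11, 10, 11 and 8 counts in Ptch1cKO libraries and 44, 13, 13 and 8 counts in WT libraries, highest in WT replicate 1 like Kif23 and Kif15, and a log2 difference of -0.84 (SE 0.54; adjusted p = 0.671 in edgeR). Kifc1, a spindle motor, had 0 counts in Ptch1cKO and 2 in WT.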
